A study of Mus musculus with 24 samples.

Results

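Messenger RNA of 9 complement components was followed in mouse liver: C3, C4b, Hc, C8a, C8b, C8g, C9, Cfb and Masp1. They were taken by gene symbol from a deposited table of raw read counts that holds 22429 genes. All 9 were found in it, each once, and all 9 passed the filter on low counts that left 12690 genes for testing. Livers came from male F1 hybrids of C57BL6J and FVBN, with 4 libraries of polyadenylated RNA in each of 6 groups. The wild type, with the genotype written Ercc1 +/+, was fed without limit to 16 weeks or to 104 weeks of age, or was put on 30% dietary restriction and taken at 16 weeks. The Ercc1 d/- mutant, a progeroid mouse that lacks normal function of a DNA excision repair nuclease in the whole body, was fed without limit to 7 or 16 weeks, or restricted in the same way to 16 weeks. Restriction began at 7 weeks of age at 10% and reached 30% at 9 weeks. The labels give 2.1 g of food a day for the restricted wild type against 3.0 g when fed freely, and 1.6 g against 2.3 g for the mutant. No food was given on the day the livers were taken, so all groups were sampled without that day's meal. Samples are numbered within groups, with no statement that each is a separate animal, and p-values therefore measure the spread between these samples only.

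Complement is a cascade of plasma proteins, made largely by hepatocytes, that tags microbes and debris and can punch pores in membranes. The classical and lectin routes, started by C1 and by mannose-binding lectins with their proteases, and the alternative route all converge on cleavage of C3, and cleavage of C5 then starts the terminal route, in which C6, C7, C8 and many copies of C9 assemble into the membrane attack complex. In mice, terminal components are more abundant in male than in female serum, and several complement genes belong to the acute-phase response. The FVB strains carry a loss-of-function allele of Hc, the mouse gene of C5, which an F1 hybrid would inherit from that parent. Reads from both alleles are summed in the table, so the values of Hc below do not say how much of the RNA can give protein.

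Total counts ran from 13.3 to 20.6 M per library. Ercc1 itself was low, at 2.59 ± 0.413 CPM (counts scaled to library size, mean ± SD, n = 4) in freely fed wild-type liver at 16 weeks and 1.51 ± 0.414 CPM in the freely fed mutant of that age. It was below the wild type under restriction (log2 fold change -1.18 ± 0.271 SE, edgeR adjusted p = 0.0033) and not called between the freely fed 16-week groups (-0.78 ± 0.276, edgeR adjusted p = 0.0754). All 8 hepatocyte markers were present in quantity, with sums between 81000 and 166000 CPM in every library. Sums over 8 neutrophil markers lay between 3.27 and 13.8 CPM and those over 7 T and NK cell markers between 0.443 and 2.5 CPM. Single neutrophil markers did not move together. From 16 to 104 weeks in the wild type, S100a8, S100a9 and Csf3r were called higher, while Ly6g went from 8.45 to 4.93 CPM and was not called. CPM were scaled by TMM, a correction for RNA composition, and a gene is said to be called, to rise or to fall when edgeR's quasi-likelihood test gave a Benjamini-Hochberg adjusted p under 0.05 over all tested genes. With scaling by total counts alone, the share of calls that were higher moved from 46.3% to 62% for restriction in the wild type and from 43.7% to 67% in the mutant. It moved from 51.3% to 68.4% for genotype in freely fed mice, from 52.4% to 73.1% for genotype under restriction, and from 51.7% to 74.2% for mutant age. For wild-type age it moved the other way, from 50.6% to 43%, and for the interaction of diet and genotype from 60.5% to 67.7%. Comparisons below that use the same group share its 4 libraries, so their values are given side by side and not correlated.

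Together the 9 genes took 1.17 ± 0.204% of all counts in freely fed wild-type liver at 16 weeks and 1.46 ± 0.077% in restricted wild-type liver (SD, n = 4). Most of this was C3, the component on which all routes converge, at 0.755% of counts in the first group and 1.24% in the second. Levels of different genes were compared only per kilobase of exon. On that scale C3 led with 1510 ± 237 CPM per kb in freely fed 16-week wild-type liver, ahead of C4b at 337 ± 90.2, C9 at 248 ± 37.3 and C8g at 244 ± 26 CPM per kb. C8a (106 ± 30.5), Hc (104 ± 23.1) and C8b (80.8 ± 10.6 CPM per kb) formed a lower tier. C9 and C8g lay closer together than their SDs, as did C8a and Hc. The lectin-route protease gene Masp1 stood at 5.63 ± 0.691 CPM per kb and Cfb at 0.84 ± 0.286 CPM per kb.

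The value of Cfb, which encodes the protease factor B of the alternative C3 convertase, is limited by how reads were assigned. Of its 2825 exonic bases, 79.5% overlap the annotated read-through gene Gm20547, which is listed at 0 counts in all 24 libraries, and the counting of reads shared by overlapping genes is not given in the sources used here. Only 954 counts were assigned to Cfb over the 24 libraries. C4b, which encodes complement C4, shares 15.2% of its 100-base windows with its near-identical neighbour C4a, a gene whose symbol is not in the table used here, so the separate value of C4b is uncertain to that extent. The other members shared no 100-base window with another gene. On GRCm38, C4b (chr17:34728380-34743882) and Cfb (chr17:34856374-34862518) lie 112 kb apart on the minus strand. C8b (chr4:104766317-104804548, plus strand) and C8a (chr4:104876398 down to 104815679, minus strand) are convergent neighbours with 11.1 kb between them. C3 lies at chr17:57203970-57228136, Hc at chr2:34983331-35061438, C8g at chr2:25498651-25501719, C9 at chr15:6445327-6498751 and Masp1 at chr16:23449417-23520815.

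**Figure D1:**
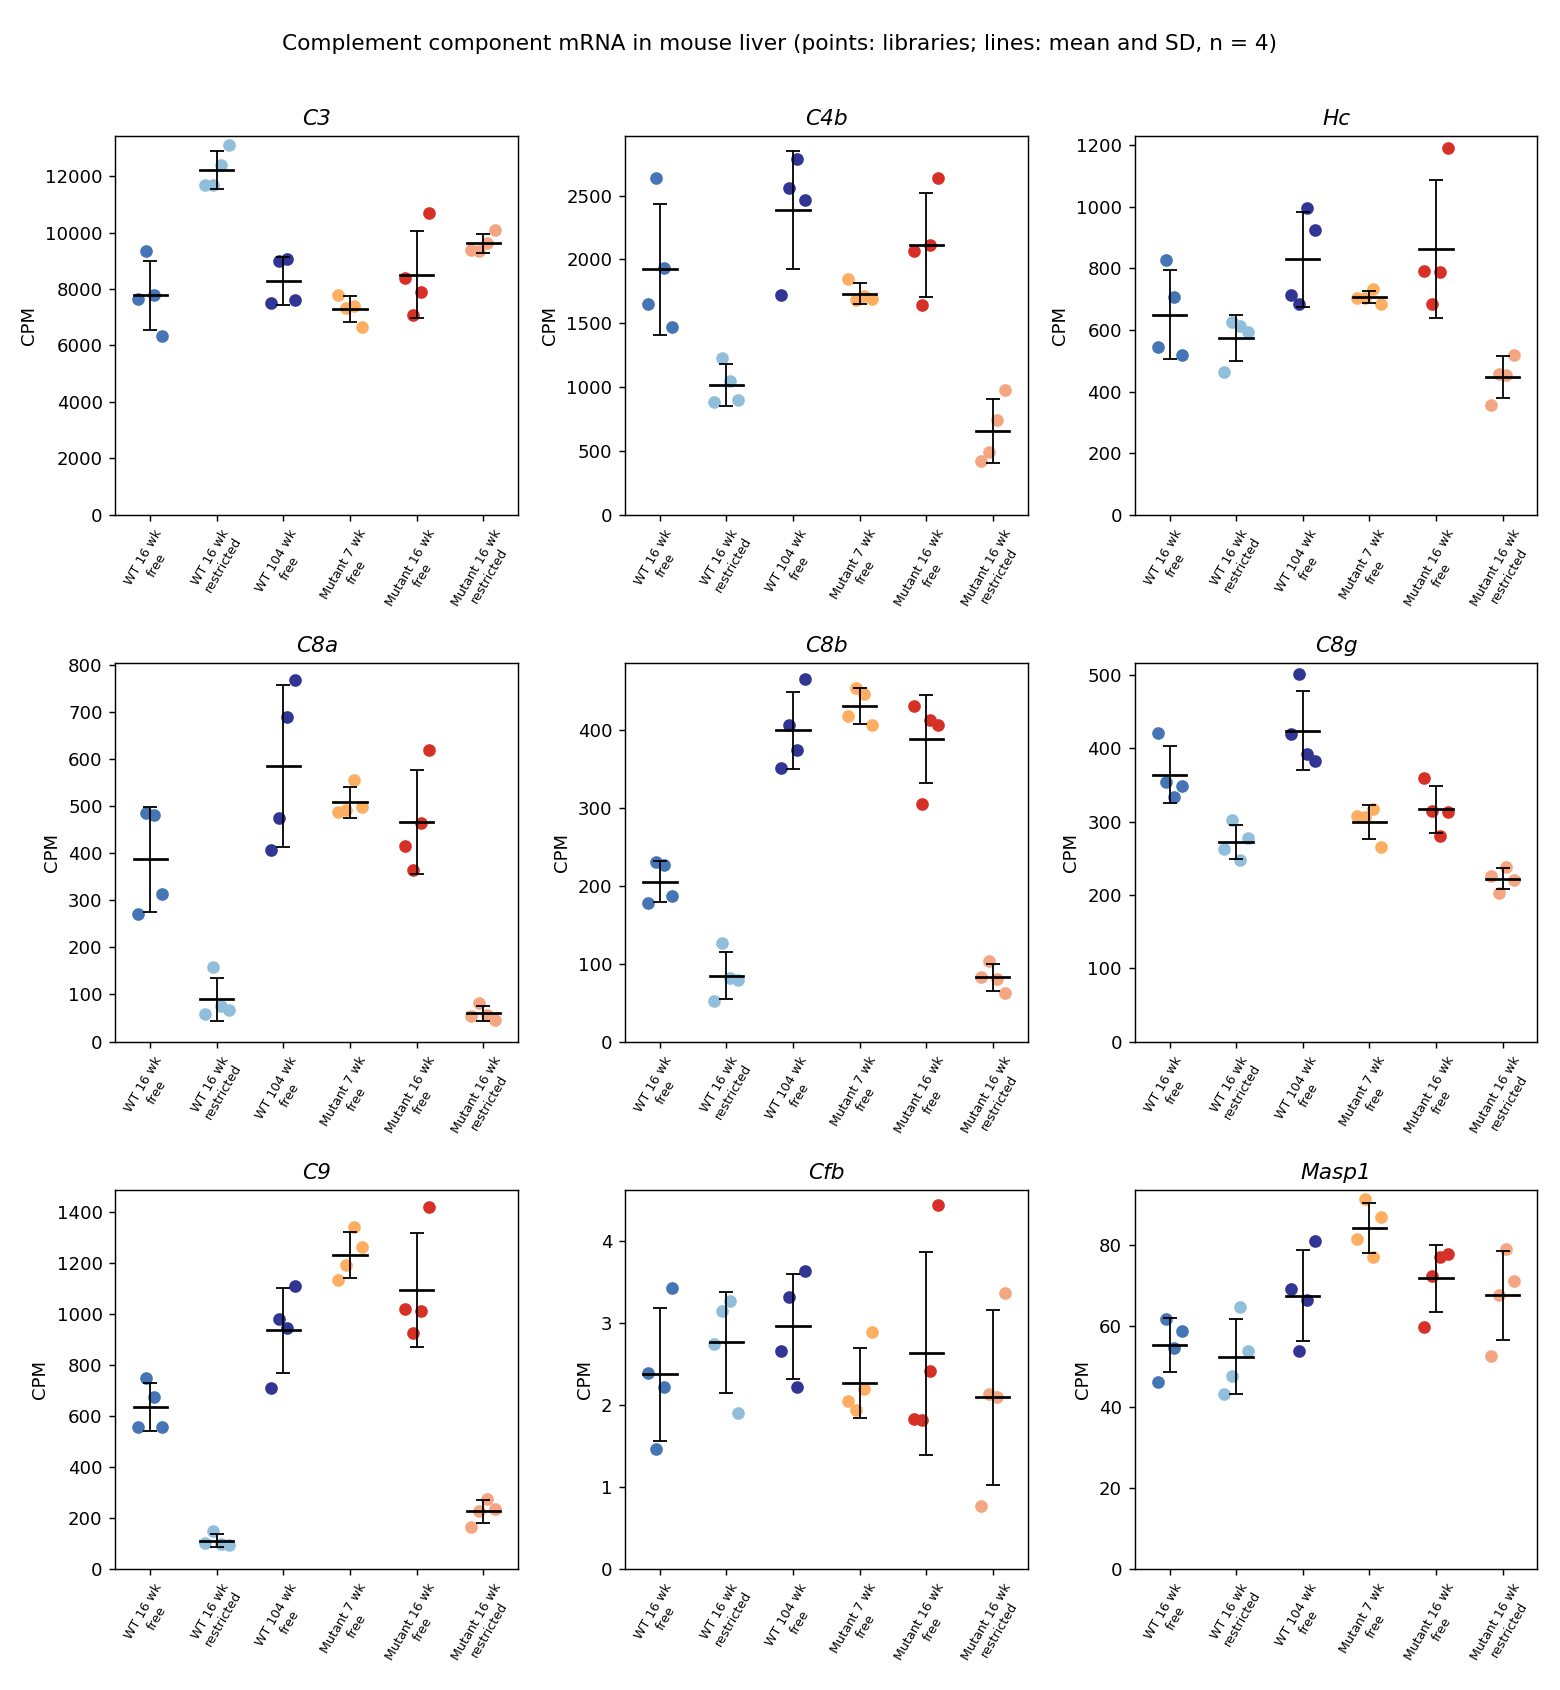
Level of each of the 9 component genes (vertical axes, CPM, linear from 0) in the 6 groups of 4 libraries; points are libraries, and lines give the mean and SD. C8a, C8b and C9 lie lowest in both restricted groups, C3 lies highest in restricted wild-type liver, and Masp1 and Cfb overlap between restricted and freely fed mice of either genotype.

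Over the 6 group means, the genes differed in how far they moved. C9 spanned 3.52 on the log2 scale, C8a 3.27, C8b 2.41 and C4b 1.92, wider than 97.2%, 96.7%, 94% and 90% of tested genes. Hc (0.936), C8g (0.927), C3 (0.745), Masp1 (0.70) and Cfb (0.645) spanned little more or less than the median of 0.724 over all tested genes. For the genes spanning over 1, those with the most similar profile over the 6 group means were listed by root mean square distance on the centred log2 scale. For C9 these were Hsd3b9 (0.322), Hsd3b1 (0.34) and Srd5a1 (0.355), and for C8b they were Egfr (0.189), Srd5a1 (0.234) and Ces3b (0.252). C8a was closest to Ces3a (0.188), Sult2a8 (0.281) and Saa4 (0.31), and C4b to the lectin gene Mbl1 (0.192), Etfbkmt (0.201) and Efna1 (0.203).

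Dietary restriction gave the widest differences. In wild-type liver, 6 of the 9 genes were called, 1 higher and 5 lower, beside 13.6% of all tested genes (6.3% higher and 7.3% lower). The terminal genes C9, C8a and C8b fell 5.82-fold, 4.31-fold and 2.43-fold, C4b fell 1.89-fold and C8g 1.34-fold, while C3 rose 1.57-fold. In the mutant, 6 of 9 were called as well, all lower, beside 11.2% of tested genes (4.91% higher and 6.33% lower). There C8a fell 7.75-fold, C9 4.87-fold, C8b 4.71-fold, C4b 3.22-fold, Hc 1.94-fold and C8g 1.43-fold. The median log2 fold change of the 9 genes was -0.419 in the wild type and -0.956 in the mutant, against 0.0392 and 0.00268 over all tested genes. The 9 genes were chosen with earlier results of these data known, so these counts and medians describe them and do not test them as a set. In bulk tissue, fewer hepatocytes and less of an RNA per hepatocyte cannot be told apart. Summed hepatocyte markers were 128000 to 166000 CPM in restricted and 109000 to 128000 CPM in freely fed wild-type liver, and 97400 to 123000 against 89500 to 109000 CPM in the mutant. Single hepatocyte markers did not move together. In the wild type Alb was called higher (72100 to 104000 CPM) and Serpina1a lower (18700 to 11900 CPM). In the mutant Cps1 and Ass1 were called higher, and Serpina1a, Apoa1 and Ttr lower. The sums are mostly Alb and do not measure hepatocyte content. The part of these markers in the result was not tested.

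**Figure D2:**
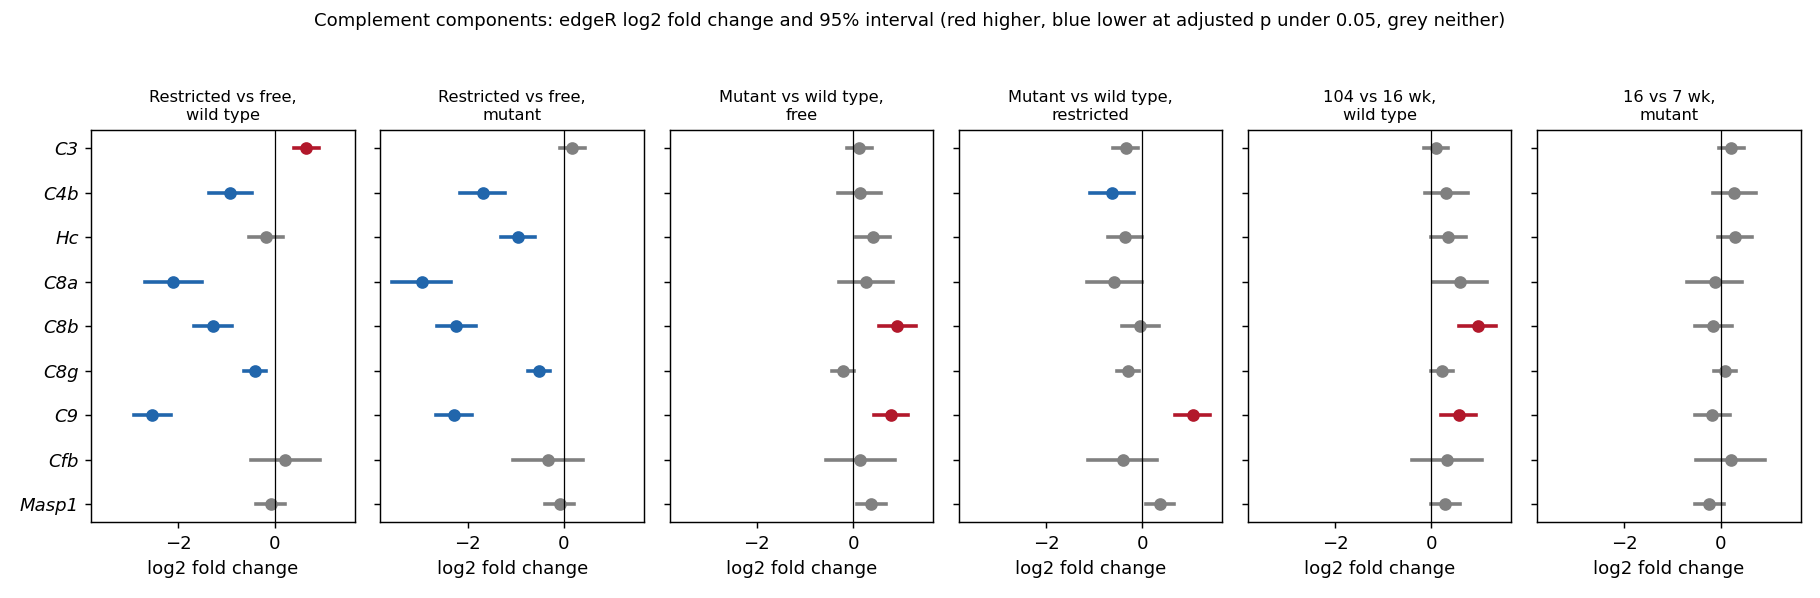
Log2 fold change of each component gene (horizontal axis; points with 95% intervals from edgeR) in the 6 comparisons of groups, one panel per comparison. Restriction gave the points farthest from 0, with C9, C8a and C8b at -2.54, -2.11 and -1.28 in the wild type and -2.28, -2.95 and -2.23 in the mutant.

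C9, whose protein polymerises into the pore, stood at 554, 749, 674 and 556 CPM in the 4 freely fed wild-type libraries at 16 weeks and at 100, 147, 97.6 and 90.8 CPM in the restricted ones. In the mutant it stood at 1020, 922, 1010 and 1420 CPM when fed freely and at 164, 226, 274 and 235 CPM after restriction. Every restricted library lay far below every freely fed library of its genotype. In the wild type, 9.06% of all tested genes lay lower without overlap on restriction and 8.17% higher. In the mutant these shares were 9.6% and 7.73%. The log2 fold change of C9 was -2.54 ± 0.184 in the wild type (edgeR adjusted p = 8.43e-10) and -2.28 ± 0.182 in the mutant (edgeR adjusted p = 4.79e-09).

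C8 has an alpha, a beta and a gamma chain, and only the first pair, encoded by C8a and C8b, belong to the pore-forming family of C9. C8a read 270, 484, 480 and 314 CPM in freely fed wild-type livers and 58.4, 158, 76.2 and 66.9 CPM in restricted ones. In the mutant, C8a read 414, 364, 464 and 619 CPM and then 54.3, 82.3, 57.1 and 46.6 CPM. The diet groups did not overlap in either genotype, although restricted wild-type library 2 was well above the other three of its group. C8a changed by -2.11 ± 0.284 on the log2 scale in the wild type (edgeR adjusted p = 2.96e-05) and by -2.95 ± 0.294 in the mutant (edgeR adjusted p = 3e-07).

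C8b read 178, 230, 227 and 187 CPM in freely fed and 52.3, 126, 81.5 and 79.3 CPM in restricted wild-type libraries. In the mutant it read 431, 305, 413 and 406 CPM and, after restriction, 83.3, 104, 81 and 62.1 CPM. The freely fed genotypes were separate and the restricted ones lay together. C8b changed by -1.28 ± 0.19 in the wild type (edgeR adjusted p = 6.61e-05) and by -2.23 ± 0.195 in the mutant (edgeR adjusted p = 1.81e-08). C8g, whose lipocalin-type chain is bound to the alpha chain, moved much less, from 364 ± 38.8 to 272 ± 23.3 CPM in the wild type (SD, n = 4) and from 317 ± 31.8 to 222 ± 14.5 CPM in the mutant. Its log2 fold changes were -0.42 ± 0.111 (edgeR adjusted p = 0.0134) and -0.51 ± 0.111 (edgeR adjusted p = 0.00276). The wild-type call of C8g was lost when only the compared groups were fitted (edgeR adjusted p = 0.0611) and without freely fed wild-type replicate 1 (edgeR adjusted p = 0.071). Within single libraries, the log2 ratio of C8a to C8g counts lay between -0.64 and 0.522 in freely fed and between -2.17 and -0.937 in restricted wild-type liver, and between 0.208 and 0.985 against -2.25 and -1.31 in the mutant. These ratios do not depend on the scaling between libraries.

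C4b gave 1650, 2640, 1930 and 1470 CPM in freely fed and 880, 1230, 1050 and 896 CPM in restricted wild-type libraries. In mutant libraries it gave 2070, 1640, 2110 and 2640 CPM and then 421, 492, 739 and 975 CPM. Restricted libraries lay below freely fed ones in both genotypes without overlap, by -0.92 ± 0.218 on the log2 scale in the wild type (edgeR adjusted p = 0.00614) and by -1.69 ± 0.222 in the mutant (edgeR adjusted p = 9.32e-06).

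C3 went the other way. It stood at 7630, 9330, 7780 and 6350 CPM in freely fed and at 11700, 11700, 12400 and 13100 CPM in restricted wild-type libraries. In the mutant it stood at 8380, 7080, 7880 and 10700 CPM when fed freely and at 9390, 9360, 9620 and 10100 CPM after restriction. The wild-type groups did not overlap, whereas the mutant groups did. The log2 fold change of C3 was 0.65 ± 0.125 in the wild type (edgeR adjusted p = 0.00103) and 0.17 ± 0.124 in the mutant (95% interval -0.0814 to 0.43, edgeR adjusted p = 0.416). Within single libraries the log2 ratio of C4b to C3 moved from -2.04 ± 0.164 to -3.6 ± 0.265 in the wild type and from -2.01 ± 0.0829 to -3.95 ± 0.507 in the mutant (SD, n = 4).

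Hc, the gene of C5, read 545, 827, 706 and 519 CPM in freely fed and 464, 625, 614 and 595 CPM in restricted wild-type libraries. The mutant gave 793, 683, 789 and 1190 CPM and then 355, 456, 453 and 520 CPM. Only the mutant groups were separate. Hc fell in the mutant by 0.96 on the log2 scale (SE 0.174, edgeR adjusted p = 0.000486), and its value in the wild type was -0.18 ± 0.172 (95% interval -0.532 to 0.179, edgeR adjusted p = 0.535). Masp1, which encodes proteases of the lectin and alternative routes, was not called in either genotype. It averaged 55.3 ± 6.8 and 52.4 ± 9.27 CPM in freely fed and restricted wild-type liver, with a 95% interval of -0.38 to 0.219 for the log2 fold change. In the mutant it averaged 71.8 ± 8.33 and 67.6 ± 11.1 CPM, with an interval of -0.386 to 0.211. Cfb stayed between 0.759 and 4.45 CPM in all 24 libraries, with intervals of -0.491 to 0.935 and -1.05 to 0.388, and was called in no comparison by edgeR.

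Whether restriction acted differently in the genotypes was tested as an interaction. None of the 9 genes was called by edgeR, beside 1.5% of all tested genes. At an unadjusted p under 0.05 there were 5 of 9, beside 14.2% of tested genes, and DESeq2 called 1, beside 3.06%. That gene was C8b, with a difference of -0.96 ± 0.265 between the log2 changes (edgeR adjusted p = 0.0703, DESeq2 adjusted p = 0.0346). The edgeR value passed the threshold without restricted wild-type replicate 1 (edgeR adjusted p = 0.0098) or restricted mutant replicate 2 (edgeR adjusted p = 0.0401). Differences of Hc (-0.78 ± 0.244), C3 (-0.48 ± 0.175), C4b (-0.77 ± 0.307) and C8a (-0.84 ± 0.387) were also negative, with edgeR adjusted p of 0.122, 0.198, 0.245 and 0.32. A negative difference means a lower log2 change on restriction in the mutant, which need not be a lower level in the restricted mutant. C8b averaged 82.6 and 84.8 CPM in restricted mutant and wild type, and 389 and 206 CPM in the freely fed ones. For C9 the difference was 0.26 ± 0.246, with a 95% interval of -0.251 to 0.766.

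**Figure D3:**
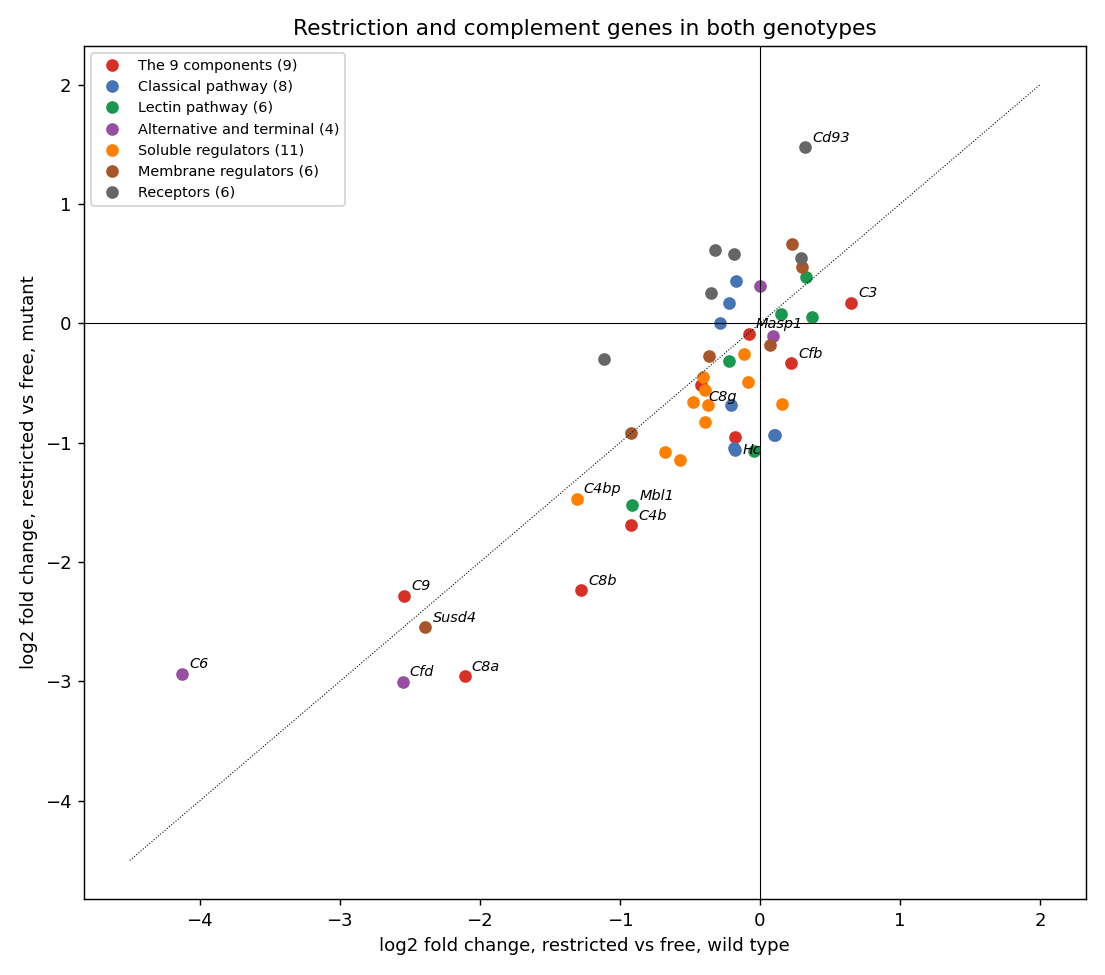
Log2 fold change on restriction in the wild type (horizontal axis) and in the mutant (vertical axis) for the 9 component genes and the other tested complement genes, 1 point per gene, with a dotted line where both are equal. The 2 axes share no library. Cfd, at a mean of 0.135 CPM in freely fed wild-type liver, was not called in either genotype, and C6, C9, C8a and Susd4 lie at the lower left, at -4.13, -2.54, -2.11 and -2.39 in the wild type.

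Promoter sequence was read for the members that moved most with diet and for C3, which moved the other way, with Hc as a member called in the mutant only. The RefSeq promoter table for GRCm38.p6 matched 6 of the 9 members by symbol (C3, Hc, C8a, C8b, C8g and C9). C4b, Cfb and Masp1 were not matched. Each window runs 5′ to 3′ on the gene's strand, from 250 bases before the RefSeq gene start to 50 after it. For C9 and Hc that start differs from the end of the gene interval given above, which is from GENCODE. Capitals mark matches, on either strand, to motifs of factors known in liver and acute-phase gene control. These were TTCNNNGAA (STAT), TTGCNNAA (C/EBP), CAAAGTCCA (HNF4), GGG and CC with 5 bases between them (NF-kB), and GTTAAT and ATTAA with 1 base between them (HNF1).
C9 promoter, chr15:6445096-6445395, plus strand: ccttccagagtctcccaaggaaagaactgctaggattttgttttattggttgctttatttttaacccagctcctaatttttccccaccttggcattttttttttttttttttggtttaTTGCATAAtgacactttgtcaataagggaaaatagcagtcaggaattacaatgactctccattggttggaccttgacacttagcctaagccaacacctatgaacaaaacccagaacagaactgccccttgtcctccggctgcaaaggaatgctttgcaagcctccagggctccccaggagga
C8a promoter, chr4:104876349-104876648, minus strand: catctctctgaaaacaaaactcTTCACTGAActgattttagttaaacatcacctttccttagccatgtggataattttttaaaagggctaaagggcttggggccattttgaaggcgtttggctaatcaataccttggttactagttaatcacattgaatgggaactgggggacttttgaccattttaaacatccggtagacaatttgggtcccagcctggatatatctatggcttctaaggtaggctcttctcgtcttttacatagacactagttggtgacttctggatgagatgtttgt
C8b promoter, chr4:104766067-104766366, plus strand: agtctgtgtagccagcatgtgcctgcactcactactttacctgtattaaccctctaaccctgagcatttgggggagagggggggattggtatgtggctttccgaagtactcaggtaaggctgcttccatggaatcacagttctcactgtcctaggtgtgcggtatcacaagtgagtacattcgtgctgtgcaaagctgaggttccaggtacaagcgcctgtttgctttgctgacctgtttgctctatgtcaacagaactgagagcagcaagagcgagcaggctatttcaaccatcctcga
C3 promoter, chr17:57228087-57228386, minus strand: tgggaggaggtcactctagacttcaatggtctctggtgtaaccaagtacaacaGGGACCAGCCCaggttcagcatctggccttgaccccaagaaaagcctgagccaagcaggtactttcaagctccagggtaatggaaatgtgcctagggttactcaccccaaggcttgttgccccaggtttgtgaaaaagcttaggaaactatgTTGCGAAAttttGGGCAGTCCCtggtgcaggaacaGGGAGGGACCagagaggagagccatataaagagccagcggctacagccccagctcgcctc
Hc promoter, chr2:35061363-35061662, minus strand: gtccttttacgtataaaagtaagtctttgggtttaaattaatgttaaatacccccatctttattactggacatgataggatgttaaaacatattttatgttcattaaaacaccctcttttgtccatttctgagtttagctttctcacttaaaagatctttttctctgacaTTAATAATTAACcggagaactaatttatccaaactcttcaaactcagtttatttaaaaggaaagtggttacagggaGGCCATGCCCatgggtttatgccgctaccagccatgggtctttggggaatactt

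Counted from the RefSeq gene start, C9 held 1 C/EBP match at position -132 and C8a held 1 STAT match at -228. C8b held none of the 5 motifs. C3 held a C/EBP match at -45 and NF-kB matches at -197, -33 and -10, of which that at -33 reads on both strands and that at -197 overlaps another at -196 on the opposite strand. Hc held an HNF1 match at -80 and an NF-kB match at -4, both on the opposite strand. Of 32851 windows of this length in the table, 50.8% hold the NF-kB letters, 10.8% C/EBP, 8.3% STAT, 0.475% HNF4 and 0.0609% HNF1. These matches describe letters and not binding sites. The windows of C9, C8a and C8b shared no motif among those searched.

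Genotype was compared next, at 16 weeks. In freely fed mice 2 of the 9 genes were called, C8b and C9, both higher in the mutant, beside 9.94% of tested genes (5.1% higher and 4.85% lower). C8b was 1.89-fold higher (log2 0.92 ± 0.188, edgeR adjusted p = 0.00193) and C9 1.73-fold higher (0.79 ± 0.175, edgeR adjusted p = 0.00407). For both, every mutant library listed above exceeded every wild-type one, as was true of 11% of all tested genes. Hc (0.41 ± 0.172, edgeR adjusted p = 0.136) and Masp1 (0.38 ± 0.145, edgeR adjusted p = 0.104) had positive values that did not pass. With only the compared groups fitted, Masp1 was called as well (0.37, edgeR adjusted p = 0.0447). Differences of C3, C4b, C8a, C8g and Cfb lay between -0.20 and 0.27, with edgeR adjusted p from 0.278 to 0.847.

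Under restriction 2 of 9 genes were called between genotypes, 1 higher and 1 lower in the mutant, beside 18.3% of tested genes (9.58% higher and 8.7% lower). C9 stayed 2.06-fold higher in the mutant (log2 1.05 ± 0.176, edgeR adjusted p = 0.000169), without overlap. C4b was lower (-0.63 ± 0.217, edgeR adjusted p = 0.0459), with overlapping groups. That call of C4b did not hold with DESeq2 size factors, total-count scaling, no filter or only the compared groups (edgeR adjusted p 0.0501 to 0.188), nor in 5 of 8 fits with a library left out (up to 0.144). It held without restricted mutant replicate 4 and without restricted wild-type replicates 1 and 4. C3 (-0.35 ± 0.124, edgeR adjusted p = 0.0537) and C8g (-0.29 ± 0.111, edgeR adjusted p = 0.0668) lay below the wild type without overlap and missed the threshold. Of all tested genes, 7.11% lay lower and 8.67% higher without overlap in this comparison. DESeq2, which called 20.7% of tested genes here, called C3 (-0.33, DESeq2 adjusted p = 0.0435) beside C9 and C4b. C8b, which separated the freely fed genotypes, differed by -0.04 ± 0.187, with a 95% interval of -0.424 to 0.348.

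Age in the wild type was compared between 104 and 16 weeks. All 9 values were positive, 3 of them with an unadjusted edgeR p under 0.05 (C8a, C8b and C9), and the median over all tested genes was 0.0157. The share of positive values over all tested genes was not counted, and a joint rise of the 9 was not tested. EdgeR called 2 genes, again C8b and C9, beside 10.1% of tested genes (5.13% higher and 5% lower). Old livers gave 351, 407, 375 and 466 CPM for C8b (log2 0.96 ± 0.188, edgeR adjusted p = 0.00149), all above the 16-week libraries, as was true of 8.21% of all tested genes. For C9 they gave 710, 978, 943 and 1110 CPM, and the lowest of these fell below the highest 16-week value (0.56 ± 0.174, edgeR adjusted p = 0.0397). That call was lost with total-count scaling (edgeR adjusted p = 0.109), with only the compared groups (edgeR adjusted p = 0.0513) and in 6 of 8 fits with a library left out (up to 0.12), all but those without old replicate 1 and without 16-week replicate 2. C8a read 407, 475, 688 and 768 CPM in old liver, against 270 to 484 CPM at 16 weeks, and was not called (0.59 ± 0.273, edgeR adjusted p = 0.181). C3 (0.09 ± 0.124), C4b (0.31 ± 0.217), Hc (0.35 ± 0.172), C8g (0.22 ± 0.111), Masp1 (0.29 ± 0.145) and Cfb (0.32 ± 0.349) were not called either, with edgeR adjusted p of 0.206 to 0.697.

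In the freely fed mutant, none of the 9 genes was called between 16 and 7 weeks by edgeR or by DESeq2, beside 0.686% and 1.58% of tested genes, and none had an unadjusted p under 0.05, beside 10.4%. At 7 weeks C9 already read 1130, 1190, 1340 and 1260 CPM and C8b 418, 454, 446 and 406 CPM, within or next to the 16-week mutant values. C8a was at 508 ± 32.7 CPM, Hc at 706 ± 19.9, C4b at 1730 ± 81.6 and C3 at 7290 ± 471 CPM at 7 weeks (SD, n = 4). No wild-type group of 7 weeks was among the samples, so age and genotype cannot be told apart in a comparison of this group with the 16-week wild type. By group means, C9 ran from restricted wild type (109 CPM) through restricted mutant (225), freely fed wild type at 16 weeks (633) and at 104 weeks (936) to the mutant at 16 weeks (1090) and 7 weeks (1230 CPM), and neighbours in this order overlapped from the 16-week wild type upward.

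The other genes of the system were read from lists of 45 genes in the table, 41 of which were tested. On restriction, edgeR called 8 lower and none higher in the wild type, where none was higher at an unadjusted p under 0.05 or by DESeq2 either, and 18 lower and 1 higher in the mutant. Over all tested genes the shares were 7.3% lower and 6.3% higher in the wild type and 6.33% lower and 4.91% higher in the mutant. The terminal component C6, which joins the complex before C8, went from 183 ± 45.5 to 10.5 ± 4.5 CPM in the wild type (log2 -4.13 ± 0.252, edgeR adjusted p = 4.89e-11) and from 443 ± 39.4 to 57.9 ± 16.5 CPM in the mutant (-2.93 ± 0.235, edgeR adjusted p = 5.83e-09). Of 11 soluble regulators, 5 fell in the wild type and 9 in the mutant. Among them C4bp, a cofactor in the breakdown of C4b, went from 594 ± 53.9 to 240 ± 26 CPM and from 740 ± 79.6 to 267 ± 10.9 CPM. Serping1, the C1 inhibitor, changed by -0.68 ± 0.13 (edgeR adjusted p = 0.00103) and -1.08 ± 0.131 (edgeR adjusted p = 2.62e-06). Clu, clusterin, which binds the assembling terminal complex, changed by -0.57 ± 0.112 (edgeR adjusted p = 0.00131) and -1.14 ± 0.113 (edgeR adjusted p = 1.3e-07). Cfi, the protease that cleaves C3b and C4b, changed by -0.39 ± 0.128 (edgeR adjusted p = 0.043) and -0.82 ± 0.129 (edgeR adjusted p = 8.56e-05). The Cfi call in the wild type was lost in 5 of 8 fits with a library left out (edgeR adjusted p up to 0.164, held without freely fed replicate 4 and restricted replicates 2 and 4). Susd4, a membrane regulator, fell from 6.2 ± 1.58 to 1.19 ± 0.335 CPM and from 16.8 ± 1.97 to 2.85 ± 0.812 CPM.

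Several upstream genes differed between the genotypes in their response to restriction. None of the 8 tested classical genes was called on restriction in the wild type by edgeR or DESeq2, and none had an unadjusted p under 0.05 there. Over all tested genes edgeR called 13.6% in that comparison, and with 8 genes a count of none is not far from that share. In the mutant 5 fell, beside 6.33% of all tested genes. C1s1, a protease of C1, read 458 ± 39.1 and 405 ± 53 CPM in freely fed and restricted wild-type liver against 539 ± 46.4 and 259 ± 12 CPM in the mutant, and the interaction was -0.88 ± 0.143 (edgeR adjusted p = 0.00106). C1s2 and C1rb changed by -1.05 ± 0.112 and -0.94 ± 0.11 in the mutant. C1s1 and C1s2 are near-identical copies, as are C1ra and C1rb, and may share reads, so the separate values of all of them are uncertain. C2, the protease that pairs with C4b, changed by -0.68 ± 0.152 in the mutant (edgeR adjusted p = 0.00357), with 46.9% of its exonic bases overlapped by another gene. Of the lectins, Mbl2 read 844 ± 91.9 and 403 ± 66.4 CPM in the mutant and 408 ± 66.7 and 396 ± 63.3 CPM in the wild type (interaction -1.02, edgeR adjusted p = 0.0228, lost in 4 of 16 fits with a library left out, those without freely fed replicate 1 or restricted replicate 4 of the mutant and replicate 4 of either wild-type group). Mbl1 changed in both, by -0.91 ± 0.153 (edgeR adjusted p = 0.000272) and -1.52 ± 0.156 (edgeR adjusted p = 2.36e-07). Masp2 was called in neither, at -0.22 ± 0.118 and -0.32 ± 0.118, with 54.9% of its exonic bases overlapped by another gene.

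**Figure D4:**
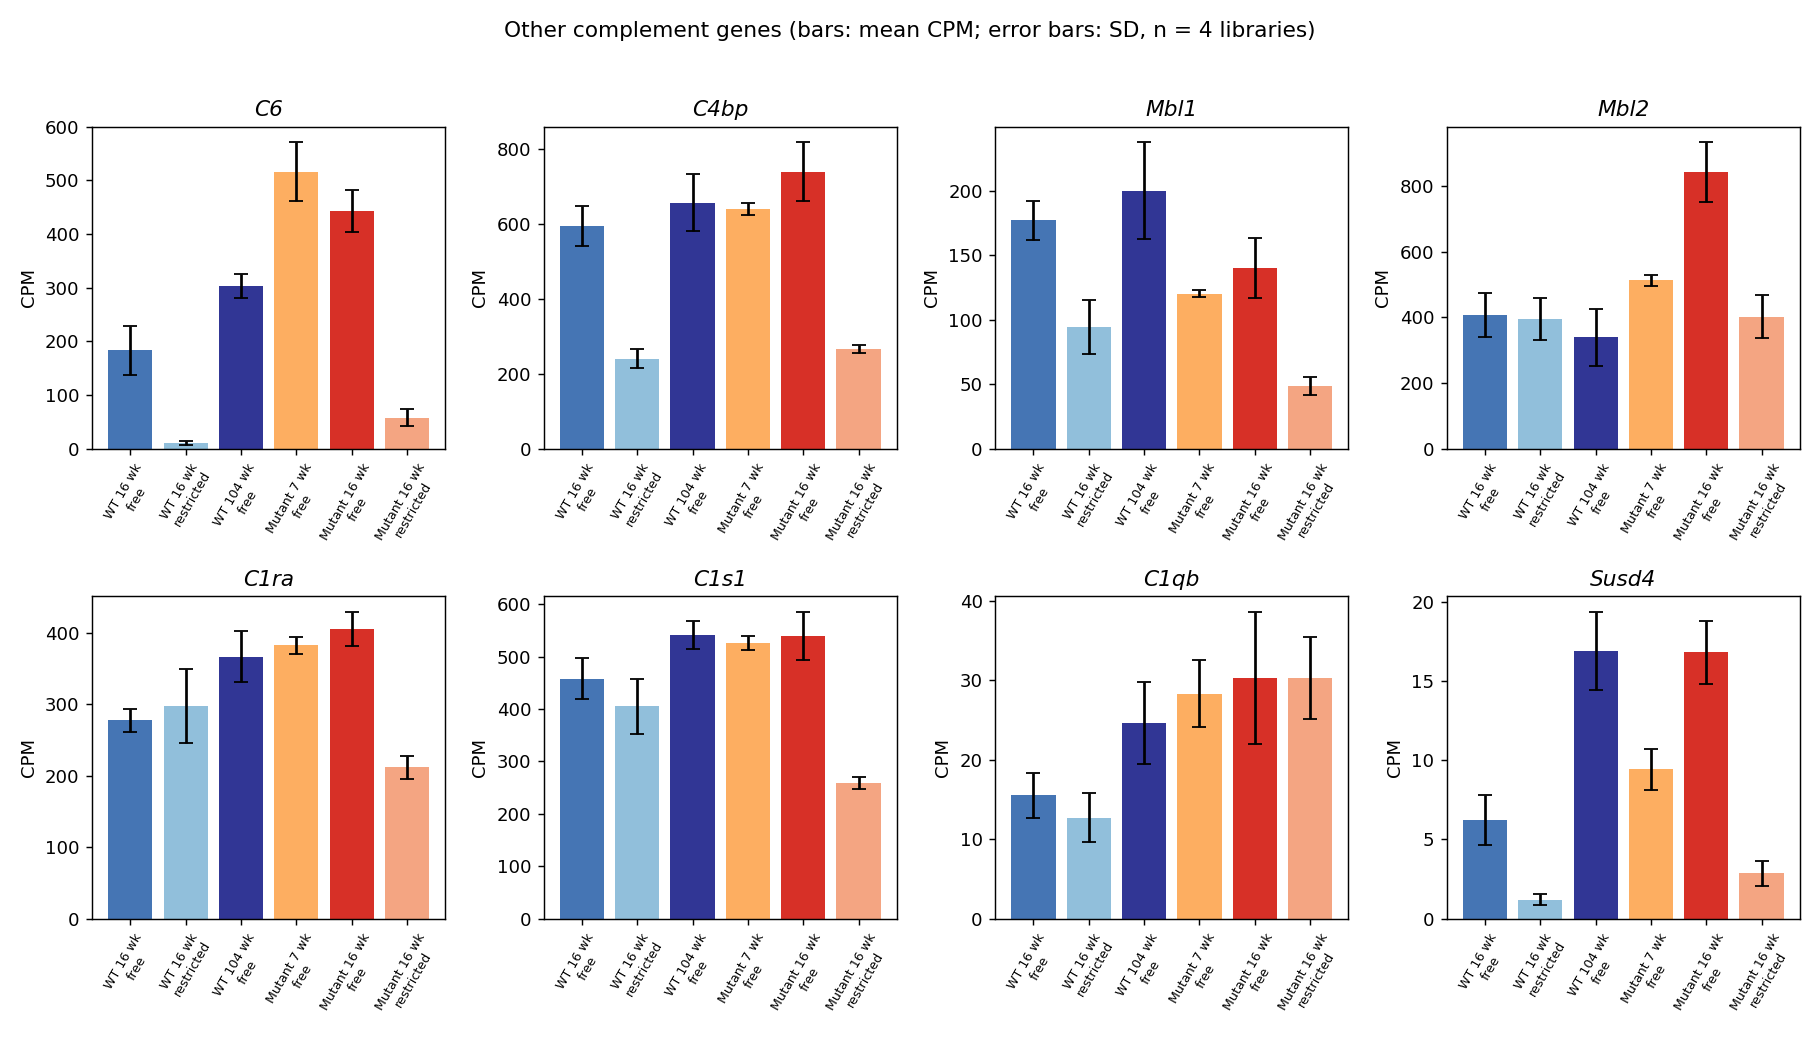
Mean level (vertical axes, CPM, bars from 0; error bars SD, n = 4) of 8 complement genes outside the 9 components in the 6 groups. C6, C4bp, Mbl1 and Susd4 are lowest in both restricted groups relative to freely fed mice of the same genotype, whereas C1ra, C1s1 and Mbl2 were called lower after restriction in the mutant, with a called interaction.

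Between freely fed genotypes at 16 weeks, edgeR called 5.1% of all tested genes higher in the mutant and 4.85% lower, and DESeq2 called 813 higher and 796 lower. Of the other complement genes, edgeR called 12 higher in the mutant and none lower, although 2 were lower at an unadjusted p under 0.05 and DESeq2 called 15 higher and none lower. C6 (log2 1.27 ± 0.222, edgeR adjusted p = 0.000378), Mbl2 (1.05 ± 0.166, edgeR adjusted p = 0.000111) and Susd4 (1.44 ± 0.203, edgeR adjusted p = 3.29e-05) were among them. Under restriction 10 were higher and 8 lower in the mutant, beside 9.58% and 8.7% of all tested genes. The log2 fold change was 2.47 ± 0.237 for C6 (edgeR adjusted p = 1.3e-07) and -0.95 ± 0.154 for Mbl1 (edgeR adjusted p = 0.000112). C1qb, a chain of C1q made largely by macrophages, was at 15.5 ± 2.8 and 12.7 ± 3.12 CPM in freely fed and restricted wild-type liver and at 30.3 ± 8.29 and 30.3 ± 5.14 CPM in the mutant. With it, 8 macrophage markers outside the complement system summed to 76.2 to 112 CPM in freely fed wild-type and 111 to 226 CPM in freely fed mutant libraries, and to 61.9 to 110 against 170 to 253 CPM under restriction. Of those 8 markers, 5 and 8 were called higher in the mutant, beside 5.1% and 9.58% of all tested genes. None of the 8 was at 0 in all libraries, and their part in the C1q result was not tested.

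Between 104 and 16 weeks, edgeR called 5.13% of all tested genes higher and 5% lower, and DESeq2 called 839 genes higher and 809 lower. Of the other complement genes, edgeR called 10 higher at 104 weeks and DESeq2 13, and none was lower by either or at an unadjusted p under 0.05. Susd4 (1.45 ± 0.204, edgeR adjusted p = 4.1e-05) and C6 (0.73 ± 0.219, edgeR adjusted p = 0.0354) were among them, and the call of C6 was lost in 7 of 8 fits with a library left out (up to 0.129), all but that without 16-week replicate 2. In the mutant, Mbl2 (0.72 ± 0.165, edgeR adjusted p = 0.0373) and Susd4 (0.84 ± 0.198, edgeR adjusted p = 0.046) were higher at 16 than at 7 weeks, and these calls were lost in 7 and 8 of 8 fits with a library left out (that of Mbl2 in all but the fit without 16-week replicate 2).

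Genes of transcription factors and of cytokine signalling were also read. Of 14 such genes, none was called on restriction in the wild type by edgeR or DESeq2, with 2 at an unadjusted p under 0.05, and Nr1h4, the bile acid receptor FXR, was lower in the mutant (-0.79, edgeR adjusted p = 0.00116). Socs3, a feedback inhibitor of STAT3 signalling, stood at 3.33 ± 0.923 and 23.1 ± 12.9 CPM at 16 and 104 weeks in the wild type. Of 24 acute-phase genes, edgeR called 3 lower and none higher on restriction in the wild type, where DESeq2 called 6 lower and 1 higher and 3 were higher at an unadjusted p under 0.05. In the mutant 5 were lower and 1 higher. Of 24 coagulation and carrier protein genes, also hepatocyte products, 5 were higher and 1 lower in the wild type and 1 higher and 9 lower in the mutant. Over all tested genes, edgeR called 6.3% higher and 7.3% lower on restriction in the wild type, and DESeq2 called 950 genes higher and 1155 lower. In the mutant, edgeR called 4.91% of all tested genes higher and 6.33% lower.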

How the data were processed

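Liver mRNA was measured in 24 libraries, 4 in each of 6 groups. The authors deposited a table of raw counts per gene, with no normalization, and a gene length column in bases (unit: other) that was used only to check the annotation. The submitters' processing notes name, with no role for each, Trimmomatic (0.39), STAR (2.7.0f), featureCounts from the Subread package (1.6.4) and the build GRCm38.p6. How strand, multi-mapped reads and overlapping genes were handled is not given in the sources used here. Per the labels' protocols, RNA was isolated from snap-frozen liver with a DNase step.

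Counts were analysed in R 4.3.3 with edgeR 4.0.16. filterByExpr left 12690 genes, TMM scaled the libraries, and 1 model with a mean per group (18 residual degrees of freedom, common dispersion 0.0493) was tested by quasi-likelihood with Benjamini-Hochberg adjustment over all tested genes, at 0.05. Log2 fold changes carry standard errors and 95% intervals of that fit. Depth was 13.3 to 20.6 M counts per library. Alternatives were DESeq2 1.42.0, its size factors in edgeR, total-count scaling, no filter, a replicate block, only the compared groups, and leaving out each library. The steps were tested on simulated counts. Each of the 36 pairs of libraries within groups differed beyond counting noise, with a chi-square of at least 8.32 per degree of freedom. The 9 members and all gene lists were chosen with earlier results of these data known. Members were always named. Other complement genes were named if among the 3 called genes of a list with the smallest adjusted p in a comparison, or from a fixed set (C6, C2, C1qa, Mbl1, Mbl2, Masp2, Cfi, C4bp), and transcription, acute-phase and coagulation genes by up to 3 per list. A gene the rule named is not reported here, though counts include it. Likeness used genes with a mean of at least 10 CPM. Positions are from GENCODE M21 on GRCm38 and promoters from RefSeq.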

Additional observations from a re-analysis of the deposited data

Results flagged for a closer look

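A library that stood apart from the other 3 of its group was looked for with Dixon's test in 180 groups of 4, of which chance marks about 1 in 20, and 7 were found. C8a read 556 CPM in mutant replicate 3 at 7 weeks, with the nearest at 497. C6 read 115 CPM in freely fed wild-type replicate 1 at 16 weeks, with the nearest at 202, and 17.2 CPM in restricted wild-type replicate 2, with the nearest at 9.25. C1qc read 42.3 CPM in restricted mutant replicate 2 (nearest 32.5), and Cfi read 507 CPM in the same library (nearest 444). Masp2 read 268 CPM in mutant replicate 4 at 7 weeks (nearest 283), and C4bp read 772 CPM in wild-type replicate 2 at 104 weeks (nearest 623).

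The effect of restriction differed between genotypes for 6 other complement genes by edgeR's interaction test, which called 1.5% of all tested genes. The differences of the log2 changes, mutant less wild type, were -1.037 for C1ra, -1.044 for C1rb, -0.8807 for C1s1, -0.862 for C1s2, -1.022 for Mbl2 and -0.8292 for Vtn. C1ra and C1rb may share reads, as may C1s1 and C1s2, so the 6 may not be separate results. The edgeR adjusted p ran from 0.000383 (C1rb) to 0.0228 (Mbl2), and the Vtn call was lost without freely fed mutant replicate 1 (edgeR adjusted p = 0.0549) or freely fed wild-type replicate 4 (edgeR adjusted p = 0.0546). C1s2 falls outside the naming rule for that comparison and was chosen after its value was seen. The difference of C6 was positive, at 1.192 ± 0.315, and missed the threshold (edgeR adjusted p = 0.0565). Of the 41 other complement genes tested, 12 were negative and 1 positive at an unadjusted edgeR p under 0.05, beside 14.2% of all tested genes. DESeq2 called 7 negative and 1 positive, beside 3.06% of all tested genes.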

How the results depend on the processing

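Of the members' log2 fold changes under settings that kept all libraries of the groups compared, 361 kept direction and side of the threshold, 7 lost a call, 4 gained one and 6 changed sign. In fits with a library left out the numbers were 545, 12, 5 and 14. In no setting did a member's called fold change move by over 1.5 times while the call stayed. The sign changes were of values near 0 that were never called: Masp1 in the interaction (0.0161 with DESeq2 size factors, 0.0534 with total counts, 0.0162 in DESeq2, 0.0246 with only the compared groups), Masp1 on restriction in the mutant (0.0323) and C8b between restricted genotypes (0.0921), both with total counts. With a library left out, values ran from -0.0912 to 0.109 for Masp1 in the interaction, -0.171 to 0.0156 for Masp1 on restriction in the mutant, -0.198 to 0.00162 in the wild type, and -0.215 to 0.222 for C8b between restricted genotypes. Those of Cfb ran from -0.233 to 0.368 between freely fed genotypes, -0.17 to 0.353 for mutant age and -0.649 to 0.0465 on restriction in the mutant.

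Members called between restricted genotypes went from 2 to 1 with DESeq2 size factors, total counts, no filter or only the compared groups, and ranged from 1 (without restricted mutant replicate 2 or 3 or restricted wild-type replicate 2) to 3 with a library left out. For wild-type age they went from 2 to 1 with total counts or only the compared groups, and ranged from 1 to 2 with a library left out. In the interaction they went from 0 to 1 in DESeq2 and ranged from 0 to 1 with a library left out. Calls over all genes went, with only the compared groups, from 1262 to 2202 (genotype, freely fed), 2320 to 877 (genotype, restricted), 1726 to 986 (restriction, wild type), 87 to 568 (mutant age) and 190 to 126 (interaction), and in DESeq2 from 87 to 201 and from 190 to 388 for the last pair. With a library left out these counts were 29 to 76 (mutant age), 109 to 225 (interaction), 792 to 1533 (wild-type age) and 1051 to 2009 (restriction, wild type), the lowest without mutant replicate 3 at 7 weeks, wild-type replicates 4 and 3 at 16 weeks and restricted wild-type replicate 4. Total-count scaling moved the median log2 fold change of all genes by 0.124 between restricted genotypes and by 0.115 on restriction in the mutant. The cause was not tested.

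Labels repeat the replicate numbers 1 to 4 in each group, with no statement that equal numbers pair samples. Same-numbered libraries of different groups had a mean correlation of deviations of 0.016 (range -0.224 to 0.289), and 7 of 24 libraries correlated best with their own number. These values gave no sign of pairing, but with 4 libraries per group they cannot exclude it. With a replicate block, members called between restricted genotypes numbered 3, the added one being Masp1 (0.37, edgeR adjusted p = 0.0475), and no other member's call changed.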
